A study of Rattus norvegicus with 20 samples.

Results

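Basal mRNA abundances were compared between the livers of Han/Wistar (Kuopio) rats (H/W) and Long-Evans (Turku/AB) rats (L-E), the 2 parental strains of the study, over 8 of its 20 microarrays, 4 per strain. Samples were assigned to a strain by their GEO titles, and every array held RNA from the liver of 1 rat. All 8 animals were control males of 10 to 12 weeks of age that had been given only the corn oil vehicle by gavage, 19 h before the liver was taken. H/W rats carry a variant Ahr allele whose product lacks part of the transactivation domain, and they came from a closed colony, so the 4 rats were not genetically identical. L-E rats carry wild-type Ahr and were inbred. The strains differ across the whole genome as well as at Ahr, so the allele and the strain background cannot be told apart in this comparison. The lines Line-A (variant Ahr) and Line-C (wild-type Ahr), both bred from crosses of L-E with H/W, were on 4 arrays each. Their levels are used below only to set the parental difference beside a second pair that differs in the Ahr allele. Sprague-Dawley rats (S-D, outbred, wild-type Ahr), also on 4 arrays, are given beside some of those genes. The arrays of the lines and S-D also entered the estimate of spread behind every adjusted p-value of the reported fit. Animals of the lines and S-D were males of the same age given the same vehicle. The arrays of the 2 lines shared a scan day and chip lot on which no parental array lay, and those of S-D had another day and lot, so a level in the lines or in S-D cannot be told apart from scan day and lot when it is set beside a parental level.

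The aryl hydrocarbon receptor (AHR) is a ligand-activated transcription factor. In the resting cell it is held in the cytosol by a chaperone complex that includes HSP90 and p23, and after ligand binding it moves to the nucleus, pairs with ARNT and binds response elements built around the letters GCGTG. The best known of its target genes encode enzymes of foreign-compound metabolism such as CYP1A1, CYP1A2 and NQO1, and liver is a main site of this response. H/W rats are known for an exceptional resistance to the lethality of dioxin, an AHR ligand, and L-E rats for their sensitivity. No dioxin was given to the animals described here.

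The arrays reported a log2 signal for 15923 ProbeSets (sets of short probes that each measure 1 transcript or a few related ones). A ProbeSet was taken as expressed at a mean of at least 4 over the 8 arrays, which 7119 reached, for 5357 of the 10412 genes with a single symbol. The arrays lay on 3 scan days. The first held H/W 1 and L-E 1, the second H/W 2, H/W 3, L-E 2, L-E 3 and L-E 4, and the third H/W 4 alone. H/W 3 stood apart from the other 3 H/W arrays: its 3′ signal for the GAPDH control exceeded the 5′ signal by 0.81 log2 units, against 0.33 to 0.47 on the other H/W arrays and 0.23 to 0.34 on the L-E arrays, and its median signal over all ProbeSets, 3.47, was the lowest of the 8. Over the groups this measure of RNA quality averaged 0.49 ± 0.22 in H/W, against 0.28 ± 0.04 in L-E (SD, n = 4 each). For the beta-actin control it averaged 2.03 ± 0.17 in H/W, against 1.79 ± 0.10 in L-E. By that control H/W 1, H/W 3 and H/W 4 lay above every L-E array, so the shift was not limited to H/W 3. The labels do not say more than that each array was a separate animal. Adjusted p-values measure a spread between animals and their arrays together that was pooled over all 20 arrays, not over these 8 alone.

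Of the 15923 ProbeSets, 527 (3.31%) differed between H/W and L-E at a false-discovery rate (FDR) of 5%, with 244 (1.53%) higher and 283 (1.78%) lower in H/W (limma, Benjamini-Hochberg over all ProbeSets, two-sided), and 220 (1.38%) at 1%. Among expressed ProbeSets the share was 6.46% (460 of 7119), and over genes, each taken at its most abundant ProbeSet, it was 3.64% (379 of 10412). Most of these differences were small, with a median size of 0.64 log2 units, or 1.56-fold. At least a 2-fold difference was reached by 67 higher and 74 lower ProbeSets, and at least a 4-fold difference by 26 higher and 13 lower ones. The groups did not overlap for 457 of the 527, against 7.56% of all ProbeSets, a description only, since the calls were made on these values. For 21 of those higher and 22 of those lower in H/W, 1 strain was under the limit of expression, and for 49 both were. The spread behind these calls was estimated over all 20 arrays. On the 8 arrays alone 61 were higher and 61 lower, and 40 of the 80 called ProbeSets described below passed.

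The counts depended on single arrays. Most genes named below were chosen for large differences called on these same arrays, so how well their calls held is a description only. Leaving out H/W 3 gave 5340 higher (33.5%) and 789 lower (4.96%) ProbeSets, and 92.1% of the 5096 added higher ones had a mean under 4 with a median difference of 0.08. All 527 of the original calls were among those made without H/W 3. Restricted to expressed ProbeSets and without H/W 3, 280 (3.93%) were higher and 417 (5.86%) lower. Leaving out L-E 2 gave 147 higher and 200 lower, and setting all arrays to equal medians gave 147 higher and 379 lower, so the split between the directions depended on how the arrays were centred. All 527 had the same sign on the scan day that held 2 H/W and 3 L-E arrays. That is a description only, since the calls were made on these arrays too. This day alone gave 21 higher and 10 lower ProbeSets, with 28 of the 527 called again.

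**Figure D1:**
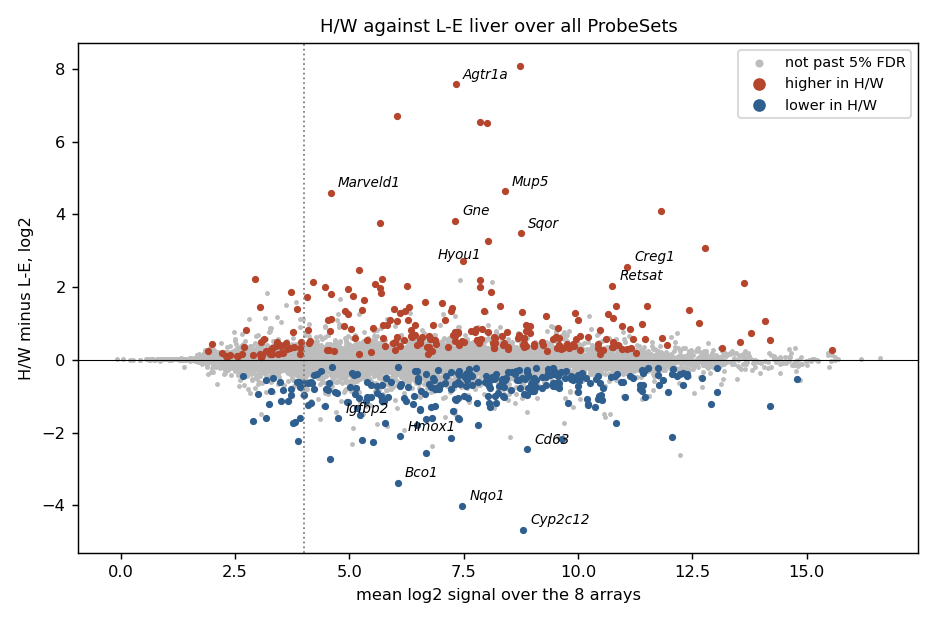
Difference H/W minus L-E (log2, y axis) against mean log2 signal over the 8 arrays (x axis) for all 15923 ProbeSets. Red points are the 244 higher and blue points the 283 lower in H/W at 5% FDR, grey points are the rest, and the dotted line is the limit of expression at 4. The points past a difference of 4 are mostly red, and the blue points gather between 0 and -2.

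The receptor and its partners were compared first, since the variant allele lies in this complex. Of 7 members on the array, 1 differed, against 3.64% of all genes. Ahr itself gave 2.73, 2.78, 2.73 and 2.69 in the 4 H/W livers, and 2.73, 4.90, 2.80 and 4.003 in the 4 L-E livers (log2 signal, in the order of the replicates, as in all such lists below). All H/W rats were under the limit of expression, and 2 of the 4 L-E rats, L-E 2 and L-E 4, reached it. The difference of -0.87 ± 0.32 (SE) did not pass the test (adjusted p = 0.165), and it passed without L-E 1 (-1.17, adjusted p = 0.0492). Whether the probes lie in the part of Ahr that differs between the strains was not tested. Arnt, the dimerisation partner, was lower in H/W at 3.35, 3.04, 2.93 and 3.01, against 3.56, 3.64, 3.36 and 3.70 in L-E (adjusted p = 0.00607). Both strains were under the limit of expression for Arnt, so no fold is given. Hsp90ab1 and Ptges3, which encode the chaperones HSP90 beta and p23, gave 12.98 ± 0.19 and 11.25 ± 0.06 in H/W, against 13.06 ± 0.17 and 11.33 ± 0.18 in L-E (adjusted p = 0.596 and 0.502).

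Among 12 genes of the AHR target battery, 1 was lower and 1 was higher in H/W, against 1.88% and 1.76% of all genes. Among expressed ProbeSets the shares were larger, at 3.68% lower and 2.78% higher. Both pairs of shares are to be set beside the counts of the lists below, the second where most members were expressed. The median difference of the battery was 0.10, against 0.04 over all genes. The gene that fell was Nqo1, which encodes a quinone reductase that is a target of both AHR and NRF2. Its signal was 5.02, 6.71, 5.11 and 5.003 in H/W livers, and 9.66, 9.95, 9.49 and 8.76 in L-E livers. Every H/W rat lay below every L-E rat, with H/W 2 above its 3 fellows. The difference was -4.01 ± 0.70, or 16.1-fold (adjusted p = 0.00336). The gene that rose was Selenbp1, a selenium-binding protein with methanethiol oxidase activity, at 11.66, 11.15, 11.94 and 11.52 in H/W and 10.83, 10.63, 10.58 and 10.84 in L-E. The strains did not overlap here either, and the difference of 0.84 ± 0.16 was 1.80-fold (adjusted p = 0.00616).

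The classical markers of AHR activation did not pass the test. Cyp1a1, which encodes the most inducible P450 of the battery, gave 1.69, 2.64, 7.63 and 2.98 in H/W and 1.70, 2.32, 4.85 and 3.72 in L-E. H/W 3, the array with the high 3′ to 5′ ratio, was far above all others, L-E 3 was next, and the strains overlapped (0.59 ± 1.10, adjusted p = 0.72). Cyp1a2, a P450 that liver makes without an inducer, was near 14 in all rats, at 14.32 ± 0.22 in H/W, against 14.25 ± 0.05 in L-E (0.07 ± 0.10, adjusted p = 0.629). Tiparp, whose product is a feedback repressor of AHR, was at 5.50 ± 0.17 in H/W, against 5.52 ± 0.22 in L-E (-0.01 ± 0.17, adjusted p = 0.959). Inmt, which encodes an indole and thioether methyltransferase, spread from 6.70 to 9.39 in H/W and from 8.52 to 9.61 in L-E, with H/W 1 and H/W 2 below all other rats (adjusted p = 0.339). Fmo1, Ugdh and Xdh, enzymes of flavin-dependent oxidation, UDP-glucuronate synthesis and purine breakdown, differed by -0.27 ± 0.19, 0.35 ± 0.13 and 0.13 ± 0.14 and did not pass (adjusted p = 0.375, 0.163 and 0.516). Of these, Ugdh passed without H/W 3 (0.43, adjusted p = 0.0234). Cyp1b1, Cyp2s1 and Slc7a5, a P450 of extrahepatic tissues, another P450 and an amino acid transporter, passed too, by 0.15, 0.06 and 0.07, with both strains under the limit of expression. That made 5 higher members of the battery without H/W 3, or 2 among expressed ProbeSets, against 33.5% of all and 3.93% of expressed ProbeSets.

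**Figure D2:**
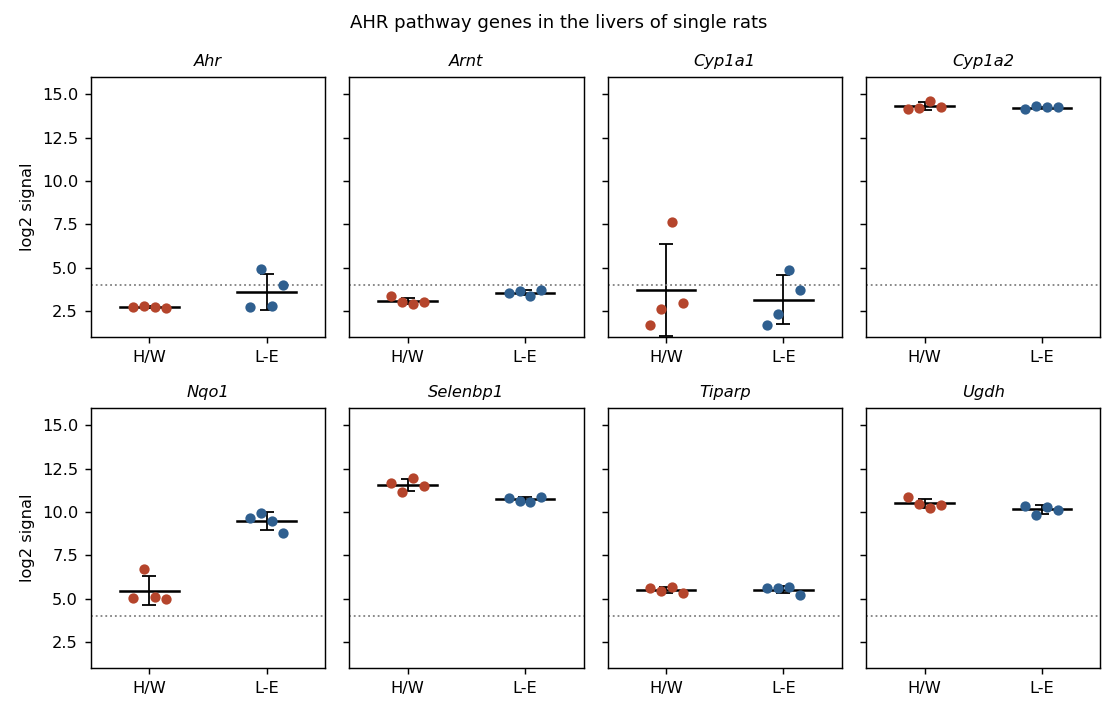
Log2 signal (y axis) of 8 genes of the AHR pathway in the 4 H/W and the 4 L-E livers (x axis). Points are single rats, bars the mean with SD, and the dotted line the limit of expression. Nqo1 separates the strains by about 4 log2 units, Cyp1a2 and Tiparp overlap between them, and for Cyp1a1 the H/W 3 rat stands far above the others.

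The response element core GCGTG, or CACGC on the other strand, was searched in the promoters of RefSeq (GRCr8 assembly), from 250 bases before to 50 bases after each start site. The promoters of Nqo1, of Agtr1a, which had the largest difference among named genes, and of Cyp2c12, which had the largest among the lower ones, are shown to place these genes in that search. Matches are in capitals.
Nqo1 promoter (chr19:52220218-52220517, minus strand, GRCr8): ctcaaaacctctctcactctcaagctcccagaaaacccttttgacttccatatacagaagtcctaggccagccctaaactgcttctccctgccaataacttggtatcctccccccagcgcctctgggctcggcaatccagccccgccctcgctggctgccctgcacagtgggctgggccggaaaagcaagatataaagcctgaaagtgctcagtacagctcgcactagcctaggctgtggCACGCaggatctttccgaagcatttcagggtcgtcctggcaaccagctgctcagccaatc
Agtr1a promoter (chr17:34435383-34435682, minus strand, GRCr8): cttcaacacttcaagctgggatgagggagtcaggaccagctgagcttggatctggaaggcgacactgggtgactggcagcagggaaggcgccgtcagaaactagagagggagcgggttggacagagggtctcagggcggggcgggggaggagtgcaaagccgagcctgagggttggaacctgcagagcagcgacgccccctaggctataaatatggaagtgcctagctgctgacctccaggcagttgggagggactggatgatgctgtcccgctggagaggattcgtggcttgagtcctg
Cyp2c12 promoter (chr1:248676985-248677284, minus strand, GRCr8): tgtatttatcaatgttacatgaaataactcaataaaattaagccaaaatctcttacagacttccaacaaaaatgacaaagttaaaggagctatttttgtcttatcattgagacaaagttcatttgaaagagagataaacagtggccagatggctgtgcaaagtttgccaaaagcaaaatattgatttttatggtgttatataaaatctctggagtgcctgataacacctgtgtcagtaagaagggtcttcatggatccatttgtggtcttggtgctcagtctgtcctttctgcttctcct
Nqo1 held 1 core, read on the opposite strand and starting 10 bases before the start site, and neither Agtr1a nor Cyp2c12 held one in this window. The core was present in 46.9% of the 8631 promoters of genes on the array that the table holds, in 51.1% of those of expressed genes, and in 46.5% (133 of 286) of those of expressed genes that differed. Split by direction, it was present in 44.9% (62 of 138) of the promoters of genes higher in H/W and in 48.0% (71 of 148) of those of genes lower in H/W. A match is only a run of letters, and the window leaves out more distant response elements.

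The largest difference of a named gene was in the renin-angiotensin system. Agtr1a, which encodes the angiotensin II type 1a receptor, gave 11.27, 11.14, 10.87 and 11.22 in H/W livers, and 4.07, 3.47, 3.50 and 3.12 in L-E livers. All H/W rats were high and alike, and only L-E 1 crossed the limit of expression among the L-E rats. Since the L-E mean was under that limit, the gene was at least 140-fold higher in H/W (7.58 ± 0.16 log2 units, adjusted p = 4.1e-15). A second ProbeSet of the gene, chosen after its values were seen, averaged 9.39 ± 0.20 in H/W, against 2.69 ± 0.01 in L-E (SD, n = 4 each). Only 1 other of the 14 genes of the system on the array passed the test, and both strains were under the limit for it, so the angiotensin receptor was the single member of this list with an expressed difference.

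Secreted lipocalins that male rats make in liver and excrete in urine were next. Mup5, a major urinary protein, gave 10.89, 10.21, 10.86 and 10.91 in H/W and 5.20, 5.87, 6.78 and 6.44 in L-E, without overlap and with H/W 2 below the other H/W rats. This was 25-fold higher in H/W (adjusted p = 1.72e-08). Obp3, an odorant-binding member of the same family, was 8.49-fold higher on one ProbeSet (14.32 ± 0.27 in H/W, 11.24 ± 0.54 in L-E) and 4.30-fold higher on a second (14.68 ± 0.23 in H/W, 12.58 ± 0.32 in L-E). The family has near-identical copies, and the probes of such sets can bind several of them, so these ProbeSets may not be separate measures.

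Both genes belong to a list of 17 male-biased liver genes, of which 5 were higher and none lower in H/W, against 1.76% and 1.88% of all genes. All 17 were expressed, and among expressed ProbeSets 2.78% were higher and 3.68% lower. The list's median difference was 0.13, so most of its members moved little. Cyp3a18, a steroid hydroxylase of male rat liver, was 2.0-fold higher (13.15 ± 0.54 in H/W, 12.15 ± 0.23 in L-E, adjusted p = 0.00947), although H/W 2 at 12.40 lay below L-E 4 at 12.48. Cyp2c22 and Spink1, a P450 and a trypsin inhibitor, were 2.1-fold and 3.15-fold higher on their most abundant ProbeSets, but these calls rested on single rats. Cyp2c22 lost its call without L-E 1 or L-E 2 (adjusted p up to 0.0613), and Spink1 without H/W 1, H/W 4, L-E 2, L-E 3 or L-E 4 (adjusted p up to 0.118). A second of the 3 ProbeSets of Spink1 was also higher, at 5.51 ± 0.67 in H/W, against 3.69 ± 0.37 in L-E (adjusted p = 0.00568), and the third gave 4.83 ± 0.26 in H/W, against 5.32 ± 0.25 in L-E, and did not pass (adjusted p = 0.297). With 1 array other than H/W 3 left out, 3 to 5 members of the list passed.

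Female-biased liver genes were on the array with 22 members, 13 of them expressed, of which 3 were lower and 1 higher. The shares were 1.88% lower and 1.76% higher among all genes, and 3.68% and 2.78% among expressed ProbeSets. Cyp2c12, a steroid sulfate hydroxylase that in rats is made mainly by female liver, was the lowest in H/W of all named genes relative to L-E. Its signal was 7.17, 6.32, 6.16 and 6.20 in H/W, and 11.02, 11.53, 11.02 and 10.94 in L-E. The male L-E rats were thus uniformly high for it, and H/W 1 was the highest of the H/W rats. The difference was 25.4-fold (adjusted p = 0.000188). Cyp2a1, a testosterone 7-alpha-hydroxylase, and Igfbp2, which binds insulin-like growth factors, fell too. Cyp2a1 was 1.77-fold lower (8.12 ± 0.26 in H/W, 8.95 ± 0.29 in L-E). Igfbp2 gave 4.04, 3.89, 3.95 and 3.98 in H/W, at the limit of expression, against 5.94, 5.29, 5.16 and 5.86 in L-E, and was at least 2.95-fold lower (adjusted p = 5.99e-05).

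Of enzymes of drug and steroid metabolism, 5 of 20 Cyp2 family genes were lower and 2 higher in H/W. These counts include Cyp2c12, Cyp2a1 and Cyp2c22, given above. Cyp2e1, the ethanol-oxidising P450, was 1.45-fold lower, at 14.59, 14.61, 14.63 and 14.25 in H/W and 15.04, 15.11, 15.04 and 15.01 in L-E (adjusted p = 0.00443). Cyp2j4, a fatty acid epoxygenase, was 1.71-fold lower, but this was lost without L-E 2 (adjusted p = 0.0558). Among 53 other phase I genes, 4 were higher, with Cyp3a18 from above among them, and 2 lower. Cyp4f6, a fatty acid hydroxylase, was 2.30-fold higher (9.90 ± 0.13 in H/W, 8.70 ± 0.52 in L-E). Ephx2, the soluble epoxide hydrolase, was 2.28-fold lower (9.19 ± 0.11 in H/W, 10.38 ± 0.56 in L-E). Both sets of H/W rats were tightly grouped and both sets of L-E rats spread widely, without overlap. Cyp4a1, a fatty acid omega-hydroxylase induced through PPAR alpha, was 4.35-fold lower at 10.94, 11.60, 10.59 and 10.81 in H/W, against 13.29, 13.73, 13.18 and 12.24 in L-E. That call was close to the threshold (adjusted p = 0.0482) and was lost without H/W 1, H/W 4, L-E 1, L-E 2 or L-E 3 (adjusted p up to 0.138) and with scan day as a fixed block over all arrays (adjusted p = 0.115).

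Conjugation genes changed singly. Of 27 phase II genes, 2 were higher and 1 lower. Ugp2, which makes the UDP-glucose that feeds glucuronidation, was 1.98-fold higher (12.07, 11.68, 11.81 and 12.01 in H/W, 11.03, 10.60, 11.07 and 10.93 in L-E, adjusted p = 0.000122). Sult1c2a, a sulfotransferase, was 1.72-fold lower (8.82 ± 0.29 in H/W, 9.60 ± 0.17 in L-E). Of 41 glutathione and antioxidant genes, 2 were higher and 2 lower. Gstm4, a mu-class glutathione transferase, gave 9.33, 9.12, 9.36 and 8.28 in H/W and 7.11, 7.09, 7.08 and 7.37 in L-E, and was 3.64-fold higher. Hmox1, the heme oxygenase that NRF2 induces, gave 4.89, 5.49, 5.36 and 4.52 in H/W and 7.01, 7.62, 6.71 and 7.28 in L-E, and was 4.26-fold lower (adjusted p = 0.000135). The strains did not overlap for either gene, and members of this list with related functions thus lay on opposite sides.

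Several of the largest increases in H/W were in genes of intermediary metabolism and the secretory pathway. Sqor, which encodes the sulfide:quinone oxidoreductase that starts mitochondrial oxidation of hydrogen sulfide, gave 10.21, 10.63, 10.54 and 10.55 in H/W and 7.02, 7.06, 6.77 and 7.19 in L-E. With an SD under 0.2 in each strain, it was 11.1-fold higher (adjusted p = 1.12e-11). Among 21 genes of sulfur amino acid and sulfide metabolism, it and Selenbp1 were higher and none was lower. Gne, the rate-limiting enzyme of sialic acid synthesis, gave 8.95, 9.62, 9.19 and 9.12 in H/W and 5.18, 5.51, 5.25 and 5.64 in L-E, a 14.1-fold difference (adjusted p = 2.42e-09). Lss, which closes the sterol ring to form lanosterol, gave 8.79, 9.06, 9.43 and 8.54 in H/W and 7.07, 6.51, 6.63 and 6.85 in L-E. It was the only one of 21 cholesterol synthesis genes to pass the test, and the median of the list was 0.05.

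Further genes with large increases had varied roles. Hyou1, a chaperone of the endoplasmic reticulum, was 9.70-fold higher (9.68 ± 0.26 in H/W, 6.401 ± 0.54 in L-E, adjusted p = 1.69e-06). Sdf2l1, another protein of that compartment, was 2.51-fold higher (9.44 ± 0.11 in H/W, 8.11 ± 0.62 in L-E, adjusted p = 0.0131). The list of stress and unfolded protein response genes, 37 on the array, did not include Hyou1. Sdf2l1 was the only member of that list to rise. Nupr1, a stress-induced transcriptional regulator, was the only one to fall (5.72, 6.71, 4.41 and 4.77 in H/W, 7.60, 7.90, 8.31 and 8.00 in L-E, 5.86-fold). Creg1, a glycoprotein of the lysosome, was 5.90-fold higher (12.35 ± 0.32 in H/W, 9.79 ± 0.29 in L-E). Pik3r1, the regulatory subunit of phosphatidylinositol 3-kinase, gave 4.43, 5.55, 6.55 and 4.56 in H/W and 3.18, 3.10, 3.16 and 3.10 in L-E, at least 2.41-fold higher and scattered among the H/W rats. Marveld1, a membrane protein, and Ythdf2, which binds methylated RNA, were at least 7.42-fold and at least 11.8-fold higher. Of 44 extracellular matrix genes, Itga1 and Col14a1, a collagen-binding integrin and a fibril-associated collagen, were higher by 4.63-fold and 4.23-fold, and 2 genes were lower.

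**Figure D3:**
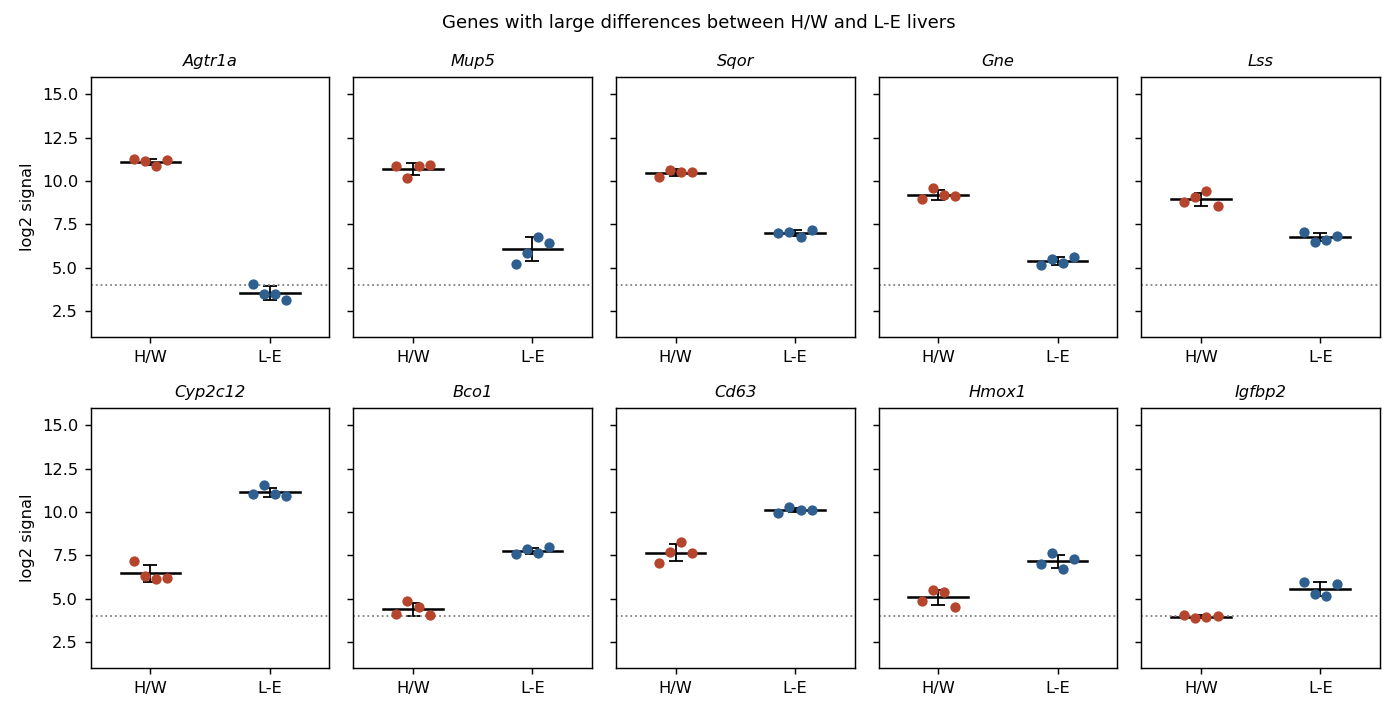
Log2 signal (y axis) of 5 genes higher in H/W (upper row) and 5 lower in H/W (lower row) in the 4 H/W and the 4 L-E livers (x axis). Points are single rats, bars the mean with SD, and the dotted line the limit of expression. In none of the 10 panels do the strains overlap.

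Rab14, a small GTPase of endosomes, had 4 ProbeSets that differed among themselves. The one with the lowest signal was at least 5.42-fold higher in H/W (6.44 ± 0.62 in H/W, 3.98 ± 0.42 in L-E, adjusted p = 0.000122), and a second was higher as well, at 8.32 ± 0.16 in H/W, against 7.47 ± 0.17 in L-E (adjusted p = 0.00101). The other two did not pass, at 8.42 ± 0.15 in H/W, against 8.12 ± 0.36 in L-E (adjusted p = 0.306), and at 10.38 ± 0.13 in H/W, against 10.96 ± 0.12 in L-E (adjusted p = 0.0814). Of 84 genes with several expressed ProbeSets of which at least 1 passed, all ProbeSets passed in the same direction for 15, and ProbeSets passed in opposite directions for 2.

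Retinoid genes differed in both directions. Bco1, which cleaves beta-carotene to retinal, gave 4.09, 4.84, 4.49 and 4.07 in H/W, near the limit of expression, and 7.56, 7.87, 7.61 and 7.95 in L-E, a 10.4-fold difference (adjusted p = 5.46e-10). Retsat, which saturates retinol, gave 12.19, 11.73, 11.70 and 11.46 in H/W and 9.57, 10.02, 9.76 and 9.57 in L-E, and was 4.11-fold higher (adjusted p = 1.8e-07). Lrat, which esterifies retinol in stellate cells, was at least 1.43-fold higher (4.51 ± 0.17 in H/W, 3.68 ± 0.50 in L-E, adjusted p = 0.0169), a call that was lost with scan day as a fixed block over all arrays (adjusted p = 0.053). These 3 and Igfbp2 were the members called among 35 genes of vitamin and hormone carriage and retinoid metabolism, 2 higher and 2 lower.

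A pair of transporters that take up organic anions from blood were lower in H/W. Slco1b2 gave 11.59, 11.46, 11.36 and 11.65 in H/W and 12.26, 12.32, 12.57 and 12.45 in L-E, and was 1.84-fold lower (adjusted p = 5.9e-06). Slco2b1 was 1.95-fold lower (8.40 ± 0.32 in H/W, 9.36 ± 0.10 in L-E). Of 26 genes of bile acid synthesis and transport, 3 were lower and 1 higher, and of 66 solute carriers, 5 were lower and 2 higher, with list medians of -0.06 and -0.01.

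In lipid and sugar metabolism, none of 33 lipogenesis genes was higher and 5 were lower, with a median of 0.01. Leaving out any 1 array other than H/W 3 brought the 5 to 2 or 3. The firmest was Cidea, a lipid droplet protein, which was at 2.07 ± 0.03 in H/W, against 3.74 ± 0.38 in L-E, so that both means were under the limit of expression and only L-E 2 exceeded it. Mlxipl, the carbohydrate-responsive transcription factor ChREBP, was 1.92-fold lower (8.35 ± 0.54 in H/W, 9.28 ± 0.32 in L-E, adjusted p = 0.0276), which was lost without H/W 4, L-E 3 or L-E 4 (adjusted p up to 0.0772) and with scan day as a fixed block over all arrays (adjusted p = 0.0807). Of 43 fatty acid oxidation genes, 27 had a negative difference, the median was -0.12, and 2 were higher and 1 lower. Without H/W 3 these counts were 6 and 6, or 0 and 1 among expressed ProbeSets. The shares without H/W 3 were 33.5% higher and 4.96% lower of all ProbeSets, and 3.93% and 5.86% of expressed ones. The lower one was Etfdh, which passes electrons from fatty acid oxidation to ubiquinone (1.52-fold). Of 43 genes of glycolysis, gluconeogenesis and related sugar metabolism, 1 was higher and 1, Galt of galactose breakdown, was 1.63-fold lower. No gene of sterol and lipoprotein transport (27 on the array), of the cytosolic ribosome (39) or of the circadian clock (17) passed the test.

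In amino acid breakdown, the 2 subunits of the first enzyme of the branched-chain keto acid dehydrogenase lay on opposite sides. Bckdhb, the beta subunit, gave 10.64, 10.01, 10.77 and 10.89 in H/W and 9.30, 9.22, 9.10 and 9.52 in L-E, and was 2.44-fold higher (adjusted p = 3.82e-05). Bckdha, the alpha subunit, gave 7.25, 7.30, 7.33 and 6.92 in H/W and 7.83, 7.99, 7.86 and 7.96 in L-E, and was 1.64-fold lower (adjusted p = 0.000423). Prodh2, which oxidises hydroxyproline, was 2.03-fold lower (10.52 ± 0.19 in H/W, 11.54 ± 0.10 in L-E, adjusted p = 4.39e-06). Altogether 4 of 61 genes of this list were higher and 3 lower.

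Most subunits of the respiratory chain had small negative differences. Of 68 genes of oxidative phosphorylation, all of them expressed, 52 had a negative difference, the median was -0.13, 5 were lower and 1 was higher, against 3.68% lower and 2.78% higher among expressed ProbeSets. Cox4i1, a subunit of cytochrome oxidase, gave 12.09, 12.12, 12.37 and 12.05 in H/W and 12.64, 12.57, 12.57 and 12.63 in L-E, and was 1.36-fold lower (adjusted p = 0.00101). Ndufc1 of complex I and Cox8a of cytochrome oxidase were 1.35-fold and 1.30-fold lower. The count of lower members was 26 without H/W 3, and 14 of 68 when only expressed ProbeSets were also tested, against 4.96% of all and 5.86% of expressed ProbeSets. It was 10 after a further quantile normalization and 13 at equal array medians. The part of the RNA quality of H/W 3 in this list was not tested.

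Coagulation genes were lower in H/W where they differed. Of 30 genes of complement and coagulation, 4 were lower and none higher, 25 had a negative difference, and the median was -0.17. The shares were 1.88% lower and 1.76% higher among all genes, and 3.68% and 2.78% among expressed ProbeSets. F10, coagulation factor X, gave 11.99, 11.98, 11.90 and 11.90 in H/W and 12.37, 12.40, 12.40 and 12.38 in L-E, so a 1.36-fold difference stood far outside the spread in each strain (adjusted p = 1.87e-06). F5, coagulation factor V, and Cpb2, the fibrinolysis inhibitor, were 1.53-fold and 1.30-fold lower, and Cfd, complement factor D, was at least 1.17-fold lower. The count of lower members was 9 without H/W 3, but 4 of 29 when only expressed ProbeSets were also tested, against 4.96% of all and 5.86% of expressed ProbeSets, and 7 at equal array medians. Among 38 protease inhibitors 2 were lower and 2 higher. Mug1, a murinoglobulin of plasma, gave 13.90, 13.92, 12.49 and 13.93 in H/W and 14.83, 14.72, 14.86 and 14.86 in L-E, with H/W 3 far below the rest, and was 2.39-fold lower (adjusted p = 0.00373). Cstb, the cathepsin inhibitor cystatin B, was 2.29-fold lower (7.45 ± 0.32 in H/W, 8.64 ± 0.19 in L-E). Of 30 acute-phase genes, Lbp, the carrier of bacterial lipopolysaccharide, was lower (9.35, 10.82, 9.62 and 10.09 in H/W, 11.78, 12.44, 11.65 and 10.92 in L-E, 3.32-fold, adjusted p = 0.00878).

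Iron genes that differed included hepcidin and a protein that controls it. Hfe, the hemochromatosis protein that acts upstream of hepcidin, was 1.63-fold lower (7.69 ± 0.23 in H/W, 8.40 ± 0.20 in L-E, adjusted p = 0.00477). Hamp, which encodes hepcidin, gave 12.81, 13.35, 13.34 and 12.90 in H/W and 10.68, 11.45, 12.40 and 12.40 in L-E, and was 2.58-fold higher, with L-E 1 and L-E 2 lowest (adjusted p = 0.0394). It was lost without H/W 1, H/W 2, H/W 4, L-E 1 or L-E 2 (adjusted p up to 0.113). With Hmox1, 3 of 26 iron genes were lower and 1 higher.

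Genes of lysosomes and late endosomes numbered 47 on the array, of which 4 were lower and 3 higher, with a median of -0.13. Cd63, a tetraspanin of late endosomes, gave 7.06, 7.69, 8.28 and 7.62 in H/W and 9.94, 10.27, 10.13 and 10.12 in L-E, and was 5.49-fold lower (adjusted p = 5.48e-07). The cathepsins moved apart, with Ctsh 1.5-fold higher (11.76 ± 0.16 in H/W, 11.18 ± 0.12 in L-E) and Ctsl 1.4-fold lower (12.47 ± 0.26 in H/W, 12.96 ± 0.17 in L-E, with overlap). Without H/W 3, 13 members were lower, or 8 of 46 when only expressed ProbeSets were tested, beside the same background shares.

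Of the remaining genes with large decreases, Fundc2, a protein of the mitochondrial outer membrane, gave 5.001, 5.02, 4.99 and 4.67 in H/W and 6.93, 6.54, 6.72 and 6.43 in L-E (3.33-fold, adjusted p = 1.32e-06). Tmem150c was 4.43-fold lower (6.14 ± 0.59 in H/W, 8.29 ± 0.25 in L-E). P2ry2, a receptor for extracellular nucleotides, and Wipi2, a protein of autophagosome formation, were 3.08-fold and 3.07-fold lower. Slc26a8, an anion transporter, was at least 1.99-fold lower (2.77 ± 0.37 in H/W, 4.99 ± 1.02 in L-E), but this was lost without H/W 1, L-E 1 or L-E 2 (adjusted p up to 0.0737). Lasp1, an actin-binding protein, was 3.48-fold lower and lost its call without H/W 1, L-E 1, L-E 2 or L-E 4 (adjusted p up to 0.0716). Klf9, a transcription factor that responds to glucocorticoids, was 2.47-fold lower (7.43 ± 0.17 in H/W, 8.73 ± 0.59 in L-E), and it and Mlxipl were the only ones called among 63 nuclear receptors and liver transcription factors. Neither passed with scan day as a fixed block over all arrays (adjusted p = 0.0535 for Klf9), which left none of the list lower. Of the ProbeSets with at least a 4-fold difference, 5 of the 26 higher and 4 of the 13 lower carry no single gene symbol and are not described.

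**Figure D4:**
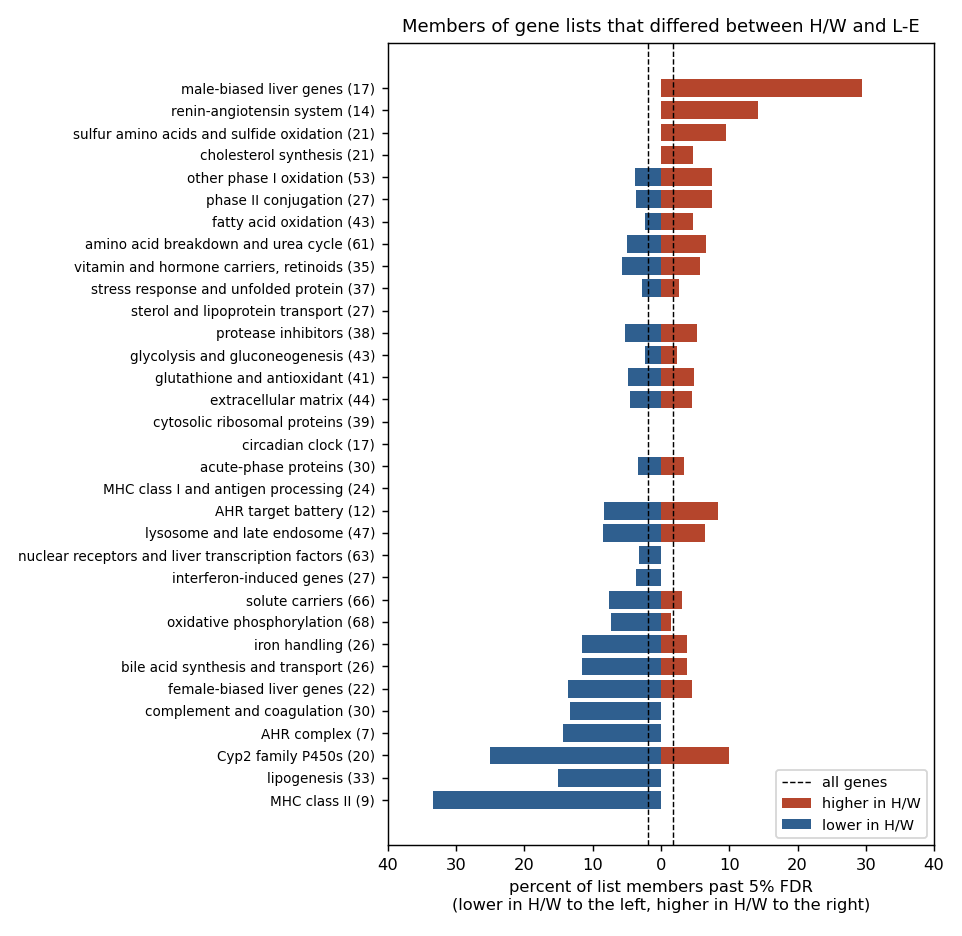
Percent of the members of the gene lists other than cell type markers (y axis, members on the array in brackets) that were lower in H/W (blue, to the left) or higher in H/W (red, to the right) at 5% FDR (x axis, percent). Dashed lines mark the share of all genes in each direction, 1.88% lower and 1.76% higher. Among expressed ProbeSets the shares, not drawn, were 3.68% lower and 2.78% higher. Male-biased genes extend furthest to the right and MHC class II genes furthest to the left, over 17 and 9 genes.

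Markers of the cell types that liver tissue holds were compared, since bulk RNA cannot tell fewer cells of a type from less RNA per cell. The main hepatocyte product, albumin (Alb), was at 16.63 ± 0.05 in H/W, against 16.58 ± 0.06 in L-E (adjusted p = 0.354). Of 15 hepatocyte markers, 2 were lower, and the mean level of the list lay between 13.94 and 14.04 in H/W and between 14.06 and 14.15 in L-E. Of 14 pericentral markers, Cyp2e1 and Glul, which encodes glutamine synthetase, were lower. Glul gave 11.60, 10.97, 11.46 and 11.67 in H/W and 12.30, 12.10, 11.95 and 12.06 in L-E, and its call was lost without L-E 1 (adjusted p = 0.0532). Of 14 Kupffer cell and macrophage markers, Csf1r, the receptor for macrophage colony-stimulating factor, was 1.59-fold lower (6.33, 6.49, 6.49 and 6.30 in H/W, 6.77, 7.32, 7.36 and 6.85 in L-E, adjusted p = 0.013), and 11 had a negative difference. The list's mean level lay between 6.86 and 7.06 in H/W and between 6.90 and 7.43 in L-E. Clec4f and Cd14 gave 9.72 ± 0.30 and 9.07 ± 0.63 in H/W, against 10.23 ± 0.27 and 9.76 ± 0.21 in L-E, and did not pass (adjusted p = 0.0925 and 0.261), although Clec4f did without H/W 3 (-0.58, adjusted p = 0.0207). Of 16 stellate cell markers only Lrat passed (none with scan day as a fixed block), of 13 endothelial markers 1, and none of 13 cholangiocyte, 17 T and NK cell, 15 neutrophil and mast cell, 9 erythroid or 2 B cell markers. Both B cell markers were under the limit of expression in all 8 rats, and of the T and NK cell and the neutrophil and mast cell markers 1 each had a mean over that limit.

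MHC class II genes, which antigen-presenting cells express, were lower in H/W for 3 of the 9 on the array, with a list median of -0.49. The share lower was 1.88% of all genes and 3.68% of expressed ProbeSets. RT1-Bb gave 7.69, 6.16, 6.15 and 6.27 in H/W and 7.79, 8.66, 7.88 and 7.55 in L-E (2.64-fold, adjusted p = 0.0169), with H/W 1 among the L-E values and the other 3 H/W rats alike. RT1-Da was 1.61-fold and Cd74, the invariant chain, 1.55-fold lower (adjusted p = 0.0404 for each). All 3 calls were lost without L-E 2 or H/W 4 (adjusted p up to 0.0608 for RT1-Bb and 0.131 for RT1-Da and Cd74), and the last 2 also without H/W 2 or L-E 3. With scan day as a fixed block over all arrays, RT1-Da and Cd74 did not pass (adjusted p = 0.123 and 0.126), which left 1 lower gene of the list. The macrophage markers given above were also lower in H/W in most cases, and their part in this result was not tested. None of 24 genes of MHC class I and antigen processing passed, and of 27 interferon-induced genes, Parp9, a mono-ADP-ribosyltransferase, was lower (5.58, 7.12, 6.54 and 5.66 in H/W, 7.44, 7.54, 7.52 and 7.503 in L-E, 2.42-fold).

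Arrays of 1 strain varied more in H/W. The H/W arrays lay on 3 scan days, while L-E 2, L-E 3 and L-E 4 shared 1, so this spread mixes rats with scan day unequally. Over the expressed ProbeSets the median within-strain SD was 0.204 in H/W, against 0.155 in L-E, and it was larger in H/W for 64.2% (4569 of 7119). Without H/W 3 the H/W median was 0.162, against 0.155 in L-E with all 4 arrays, and the share was 51.7%. Leaving out 1 L-E array lowered the L-E median as well, to between 0.1391 and 0.1445. H/W without its most distant array and L-E with all arrays are thus not compared alike, and how much of the excess came from H/W 3 was not tested.

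Lines bred from the same strains gave a second pair with variant and wild-type Ahr. Between Line-A and Line-C, 222 ProbeSets (1.39%) differed at 5% FDR. Of the 527 that differed between H/W and L-E, 25 also differed between Line-A and Line-C in the same direction and 32 in the opposite direction, and for 438 the lines lay within 0.5 log2 units of each other. The last count is a description, since it was not taken over all ProbeSets and the median parental difference of the 527 was itself 0.64. The parental difference departed from that of the lines for 320 of all ProbeSets (2.01%, limma interaction, 5% FDR). Of these, 196 were among the 527, from which nothing is read, since the 527 were called on a term of that test. By level, for 266 both lines were nearer to H/W and for 145 both were nearer to L-E. Line-A nearer to H/W with Line-C nearer to L-E occurred in 61, and the reverse in 55. These counts set lines against parents across scan days and chip lots.

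Agtr1a was among the 25 with the same direction, at 10.79 ± 0.18 in Line-A and 3.91 ± 0.22 in Line-C. S-D rats, which carry wild-type Ahr as L-E and Line-C do, gave 10.70 ± 0.07, so the high level was not limited to carriers of the variant allele. The same held for Marveld1, at 7.55 ± 0.35 in S-D. Also among the 25 were Sqor (10.03 ± 0.16 in Line-A, 7.34 ± 0.19 in Line-C), Marveld1 (8.46 ± 1.07 in Line-A, 2.53 ± 0.26 in Line-C), Bckdhb (11.15 ± 0.09 in Line-A, 9.57 ± 0.04 in Line-C), Hfe, Ctsh, Slco1b2 and Cyp2c12 (7.93 ± 1.63 in Line-A, 11.79 ± 0.74 in Line-C). For Bckdhb, S-D rats gave 10.98 ± 0.13, between H/W and Line-A, so its high level was not limited to variant carriers either. For Sqor (8.40), Hfe (8.26), Ctsh (11.41), Slco1b2 (12.38) and Cyp2c12 (9.80) the S-D means lay nearer to L-E than to H/W. Creg1 was among the 32 with the opposite direction, at 9.94 ± 0.33 in Line-A and 12.21 ± 0.16 in Line-C. Itga1 (3.67 ± 0.09 in Line-A, 6.93 ± 0.47 in Line-C) and Slc13a2 (1.89 ± 0.02 in Line-A, 3.68 ± 0.67 in Line-C) had the same arrangement. For Slc13a2 both line means were under the limit of expression, and H/W was barely over it (4.05 ± 0.23, against 1.84 ± 0.01 in L-E).

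Nqo1, the battery gene with the largest difference between the strains, was at 8.76 in Line-A and 8.81 in Line-C, both near L-E, while S-D rats gave 5.67 ± 1.82. The test of the difference between the pairs was close to the threshold (adjusted p = 0.0488). Bco1 (7.33 in Line-A, 7.24 in Line-C) and Cd63 (9.92 in Line-A, 10.03 in Line-C) were also near L-E in both lines, and Hmox1 (5.65 in Line-A, 5.45 in Line-C), Tmem150c (5.62 in Line-A, 5.58 in Line-C) and Fundc2 (4.92 in Line-A, 4.73 in Line-C) were near H/W in both. Gne (5.05 in Line-A, 5.21 in Line-C), Mup5 (6.95 in Line-A, 6.45 in Line-C), Lss (6.57 in Line-A, 6.92 in Line-C) and Retsat (9.30 in Line-A, 9.35 in Line-C) were low in both lines, as in L-E, but S-D rats, at 8.63, 10.51, 8.23 and 11.74 for these 4 genes in that order, lay nearer to H/W. Of the 39 ProbeSets with at least a 4-fold difference between the strains, 8 differed between the lines in the same direction and 7 in the opposite one.

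**Figure D5:**
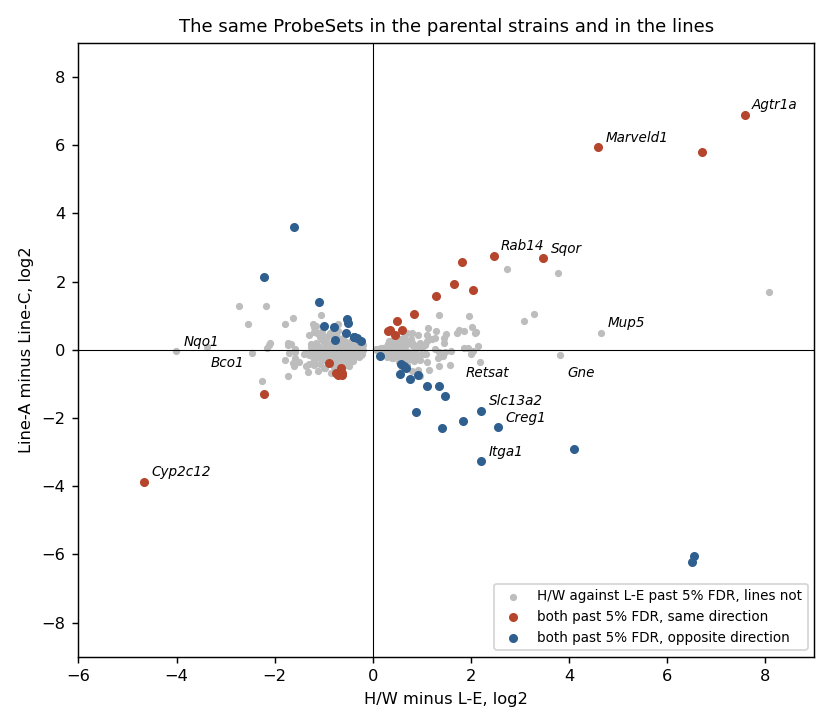
Line-A minus Line-C (log2, y axis) against H/W minus L-E (log2, x axis) for the 527 ProbeSets past 5% FDR between H/W and L-E. Red points are the 25 that also differed between the lines in the same direction, blue points the 32 in the opposite direction, and grey points the rest, most of which lie near 0 on the y axis.

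Genes that differed were also placed along the chromosomes of GRCr8. Among 5342 expressed genes so placed, 1 run of at least 3 consecutive genes passed the test, and pairs of neighbours were not counted. The run was Rnf167, Pfn1 and Kif1c on chromosome 10. They encode a ubiquitin ligase, the actin-binding protein profilin 1 and a kinesin motor. Their differences were -0.47, -0.22 and 0.46, so the 3 did not share a direction. All 3 calls were lost without H/W 4 or L-E 2 (adjusted p up to 0.0653 for Rnf167, 0.13 for Pfn1 and 0.0868 for Kif1c), that of Rnf167 also without L-E 4, and that of Pfn1 also without H/W 1, H/W 2, L-E 1 or L-E 4. With scan day as a fixed block over all arrays none of the 3 passed (adjusted p = 0.0776, 0.0641 and 0.072).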

How the data were processed

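Liver RNA of 20 male rats was hybridised to Affymetrix RAE230A arrays, 1 rat per array. The deposited values are log2 signals that the authors made with GC-RMA, which corrects probes for background by GC content, sets arrays to a common distribution and summarises each ProbeSet. The submitters' processing notes name GCRMA 2.10.0, affy 1.12.0 and R 2.6.1. No value was missing, no 2 arrays were identical, and no column was left unmapped (0). Settings that could change a level are the background model, which pulls dim ProbeSets to a common floor, and the forced common distribution, which makes differences relative to the array. The deposited array header files, whose values are of other kinds, were used only for scan day, chip lot and operator. For 12789 ProbeSets the platform annotation gave 1 symbol, for 312 several and for 2822 none, and only the first were named.

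A model with 1 mean for each strain or line was fitted over the 20 arrays with limma 3.58.1 (R 4.3.3, statmod 1.5.0), following the study's methods, with the contrast H/W minus L-E, moderated variances and Benjamini-Hochberg adjustment over 15923 ProbeSets. Errors of differences are moderated-model SE. Folds against a mean under 4 are lower bounds computed against 4. A gene was represented by its most abundant ProbeSet in lists. The number of arrays limits the precision. In a simulation of this contrast over 15923 ProbeSets, 91 of 100 ProbeSets with a true log2 difference of 1 and 66 of 100 with one of 0.5 were called, beside 8 false calls. The simulated spread was independent between arrays and equal in all groups, without effects of scan day or RNA quality. The changed ProbeSets were drawn from all 15923, of which 8804 were under the limit of expression. These rates therefore do not give the power for expressed ProbeSets or the false calls in the real arrays.

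Named genes were the 15 largest differences in each direction with a single symbol, without overlap and past 5% FDR, all AHR complex and battery genes, up to 5 called members of each other list, runs of at least 3 called neighbours, disagreeing ProbeSets and the 3 most abundant genes of each marker list. The members and the 44 lists were chosen with earlier results of these data known. Lists are described by counts and medians, without tests. Alternatives were the 8 arrays alone, a replicate block, limma's trend and robust options, array weights, further quantile normalization, equal medians, filters at 4, scan day and chip lot, and leaving out each array. A random block for scan day over all arrays, a filter with H/W 3 left out, and scaling alternatives for the lists were chosen after seeing the data.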

Additional observations from a re-analysis of the deposited data

Results flagged for a closer look

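In 18 of 181 groups of 4 rats, over the genes described above, 1 rat lay far from the other 3 by Dixon's criterion, where chance gives about 1 in 20. H/W 4 was lowest for Fundc2 (4.67, others 4.99 to 5.02), Ptges3 (11.16, others 11.27 to 11.28), Cox8a (11.63, others 11.94 to 11.99) and Cyp2e1 (14.25, others 14.59 to 14.63). H/W 2 was lowest for Mup5 (10.21, others 10.86 to 10.91) and Cyp2j4 (8.12, others 8.63 to 8.66) and highest for Nqo1 (6.71, others 5.003 to 5.11). H/W 1 was highest for Cyp2c12 (7.17, others 6.16 to 6.32) and the MHC class II gene RT1-Bb (7.69, others 6.15 to 6.27) and lowest for Alb (16.55). H/W 3 was lowest for Mug1 (12.49, others 13.90 to 13.93) and highest for Aldh3a1, an aldehyde dehydrogenase of the AHR battery (4.06, others 3.15 to 3.21). In L-E, the rat apart was L-E 4 for Rab14 (3.35), Tiparp (5.19) and Gstm4 (7.37), L-E 2 for Cyp2c12 (11.53) and Kif1c (6.09), and L-E 1 for Slco2b1 (9.215).

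Among the ProbeSets of the genes described above, there were 44 that reached a mean of 4 in at least 1 of the 4 groups and whose difference H/W minus L-E departed from Line-A minus Line-C by a test of that departure (limma interaction, adjusted p between 3.68e-09 and 0.0495), of 320 such departures over all ProbeSets. Most of these genes were chosen for their parental difference, a term of that test, so their number supports nothing by itself. The sign was opposite and the lines differed by over 1 log2 unit for Creg1 (2.56 between H/W and L-E, -2.26 between Line-A and Line-C), Itga1 (2.21 and -3.26 in the same order of pairs), Slc13a2 (2.21 and -1.79) and Slc26a8 (-2.22 and 2.14). For Slc13a2 only the H/W mean, of these 4 groups, reached the limit of expression. The direction was shared but the parental difference larger for Sqor (3.48 and 2.69), Hyou1 (3.28 and 1.06), both ProbeSets of Obp3 (3.09 and 0.83, 2.104 and 0.53), Gstm4 (1.86 and 0.55), Slco1b2 (-0.88 and -0.38), F10 (-0.45 and -0.16), Cstb (-1.19 and -0.29), Igfbp2 (-1.60 and -0.23) and Bckdha (-0.71 and -0.15).

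Other genes higher in H/W with a smaller or opposite line difference, given as H/W minus L-E, were Mup5 (4.64), Gne (3.82), Lss (2.19), Pik3r1 (2.14), Retsat (2.04), Sdf2l1 (1.33), Ugp2 (0.99), Selenbp1 (0.84) and Lrat (0.83). Those lower in H/W were Nqo1 (-4.01), Bco1 (-3.38), Nupr1 (-2.55), Cd63 (-2.46), Tmem150c (-2.15), Hmox1 (-2.09), Fundc2 (-1.73), the unnamed locus LOC102547700 (-1.73) and P2ry2 (-1.62). Smaller parental differences of this kind were found for Klf9 (-1.30), Mug1 (-1.26), Prodh2 (-1.02), Slco2b1 (-0.96), Mlxipl (-0.94), Cyp2a1 (-0.83), F5 (-0.61), Etfdh (-0.61), Cyp2e1 (-0.53), Cox4i1 (-0.44), Ndufc1 (-0.43) and Cox8a (-0.37).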

How the results depend on the processing

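Values below are ProbeSets higher in H/W, lower in H/W, and past 1% FDR in either direction, against 244, 283 and 220 in the reported fit. They were 61, 61 and 47 on the 8 arrays alone, 67, 79 and 51 on these with scan day as a random block, 37, 29 and 14 with it as a fixed block, 21, 10 and 3 on the shared scan day alone, and 56, 56 and 26 with chip lot as a block. Array weights gave 5988, 792 and 2876, and equal array medians 147 higher. Limma's trend and robust options, further quantile normalization, the filters at 4 and scan day as a block over all arrays each stayed within 1.5 times all 3 counts. Leaving out 1 array gave 147 to 5340 higher, 200 to 789 lower and 149 to 295 past 1% FDR, with the upper ends without H/W 3. The count of ProbeSets whose parental difference departed from that of the lines, 320 in the reported fit, was 248 to 390 with 1 array left out and 6913 with array weights.

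Of 80 described ProbeSets past 5% FDR, 65 stayed past it with any 1 of the 8 arrays left out (67 to 80 for single arrays). With scan day as a block over all arrays, 71 stayed with a fixed and 79 with a random block. All 80 had the same sign on the shared scan day, a description only, since its arrays were among those of the calls. The 8 arrays alone gave 40, with scan day 27 as a fixed and 44 as a random block, with chip lot 32, and the shared scan day alone 13. No described ProbeSet reversed its direction. Why fewer passed on fewer arrays was not tested beyond the smaller number of arrays in those fits.

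Same-numbered H/W and L-E arrays deviated together with correlations of 0.13, 0.23, -0.14 and -0.08, and 2 of the 4 H/W arrays correlated best with their own number, so the numbers were not taken to pair the rats. With the replicate number as a block, 205 were higher, 258 lower and 190 past 1% FDR on all arrays, and 37, 37 and 6 on the 8 arrays alone, with 76 and 21 of the 80 described ProbeSets past 5% FDR and 290 departures from the lines on all arrays.

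Over all ProbeSets the median SD was 0.099 for H/W rats and 0.0597 for L-E rats. The precision is limited by 4 rats per strain, by 3 scan days of which 1 held a single H/W array, and for dim ProbeSets by the floor of GC-RMA.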
